A study of Mus musculus with 22 samples.

Results

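Inherited neuropathies are disorders in which long motor and sensory axons, or the Schwann cells that wrap them, fail slowly because of a change in a single gene. Changes in several aminoacyl-tRNA synthetases, Yars among them, cause such disease, and the human disorder linked to the YARS change E196K is a dominant intermediate form of Charcot-Marie-Tooth neuropathy. The 39 genes described here are neuropathy and related motor or sensory disease genes that do not encode a tRNA synthetase. They were chosen by symbol and by no rule on measured values, though earlier results of these data were known. Each matched 1 of the 38924 gene IDs in the files. Their products work in the traffic of endosomes and phosphoinositide lipids (10 genes), in small GTPase and actin control (4), in the shape and lipids of the endoplasmic reticulum (ER; 6), in mitochondria and energy metabolism (6), as chaperones (3), in the nucleus or on nucleic acids (5), and in channels, junctions and signalling (5). Many of them are needed in spinal motor neurons or oligodendrocytes, and others mainly in Schwann cells of peripheral nerve, a cell type that lies outside the cord.

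RNA from whole spinal cord was sequenced in 22 libraries to ask how the Yars change alters the transcriptome. HOM mice carried E196K on both Yars alleles (10 libraries), HET mice carried 1 E196K and 1 wild type allele (6 libraries), and WT mice carried none (6 libraries). All mice were 7 months old on a B6N;B6J background, and the labels give no sex. The labels do not state that each library came from its own mouse, so p-values measure the spread between libraries, and the alleles were not checked from reads here.

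Libraries held 24448477 to 42805931 rounded counts, and levels are given as CPM, counts scaled to the library total with TMM factors. Markers of the cells of the cord were present in all libraries, with median summed levels in the 9 HOM libraries other than HOM 3, in HET and in WT of 4963, 5050 and 5109 CPM for neuron markers and 347, 362 and 351 CPM for motor neuron markers. Anchors of the integrated stress response were picked with earlier results on these libraries known, so their calls give no independent support. They were higher in HOM than in HET and WT. Fgf21 averaged 3.34 ± 1.17 CPM in HOM, 0.0671 ± 0.0645 CPM in HET and was at 0 in all WT libraries (SD). Stbd1 averaged 4.21 ± 1.06, 1.46 ± 0.151 and 1.25 ± 0.166 CPM in HOM, HET and WT. Slc7a1 (log2 difference 0.40) and Chac1 (0.55) were higher in HOM than in WT as well (edgeR's quasi-likelihood test, Benjamini-Hochberg adjusted p = 1.01e-06 and 0.000359). In HOM against WT 6 of the 8 anchors were called, with a median log2 difference of 0.38, and in HET against WT 0 of the 8 were called. The library HOM 3, the third homozygous library in deposition order, stood apart. Its 10 Schwann cell markers summed to 3534 CPM, against 130 to 138 CPM in the other HOM, 138 to 147 CPM in HET and 130 to 146 CPM in WT libraries. Fibroblast and meningeal markers (619 CPM) and blood markers (2346 CPM) were also above all other libraries there. Results are therefore given with HOM 3, and for the members and lists it moved most also without it.

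No neuropathy gene was called between genotypes, where at most 0.106% of all tested genes were called. At so low a share, 0 of 38 does not set the members apart and does not show that none differed. Of the 39 genes, 38 passed the filter on low counts, and 0 of 38 were called at an adjusted p below 0.05 in HOM against WT, where 0.0943% of 16974 tested genes were called. The count was likewise 0 of 38 in HET against WT (background 0%), 0 of 38 in HOM against HET (background 0.106%), and 0 of 38 with the number of E196K alleles as a numeric term (background 0.1%; 5 of 38 at an unadjusted p below 0.05, background 6.9%), all by edgeR's quasi-likelihood test. DESeq2, limma voom and limma on log2 TPM (transcripts scaled for length and library total) also called 0 of the 38 in the 3 comparisons. At an unadjusted p below 0.05 there were 3 of 38 in HOM against WT (background 5.91%), 1 of 38 in HET against WT (background 3.41%) and 5 of 38 in HOM against HET (background 8.8%). The 3 comparisons share libraries, so their values are given side by side and are not separate evidence.

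The size of the differences was small and well bounded. The median log2 difference of the 38 genes was 0.0014 in HOM against WT, 0.0098 in HET against WT and 0.0082 in HOM against HET, and the median over all tested genes was 0.0065, 0.0027 and 0.0050 in the same order. The 95% interval of the log2 difference lay within ±0.3 for 37 of 38 genes in HOM against WT, 36 of 38 in HET against WT and 36 of 38 in HOM against HET. Trpv4, the least abundant tested member, had the widest bounds in all 3, at 0.45, -0.47 and 0.62. By role, the members higher and lower in HOM than in WT were 6 and 4 for endosome traffic, 1 and 3 for small GTPase and actin control, 3 and 3 for the ER, 3 and 3 for mitochondria and energy, 0 and 2 for the tested chaperones, 4 and 1 for nuclear genes, and 2 and 3 for channels and signalling. Over all tested genes, 9123 were higher and 7851 lower. In simulated libraries of this design, 62% of genes given a 1.2-fold change between HOM and WT were called, 88% at 1.5-fold and 98% at 2-fold. The simulation changed 50 genes at each fold, more than the 16 called in these data, which loosens the adjusted threshold. It also drew all libraries of a genotype around the same mean, with no library like HOM 3. Its shares may therefore be higher than the recovery in these data.

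**Figure D1:**
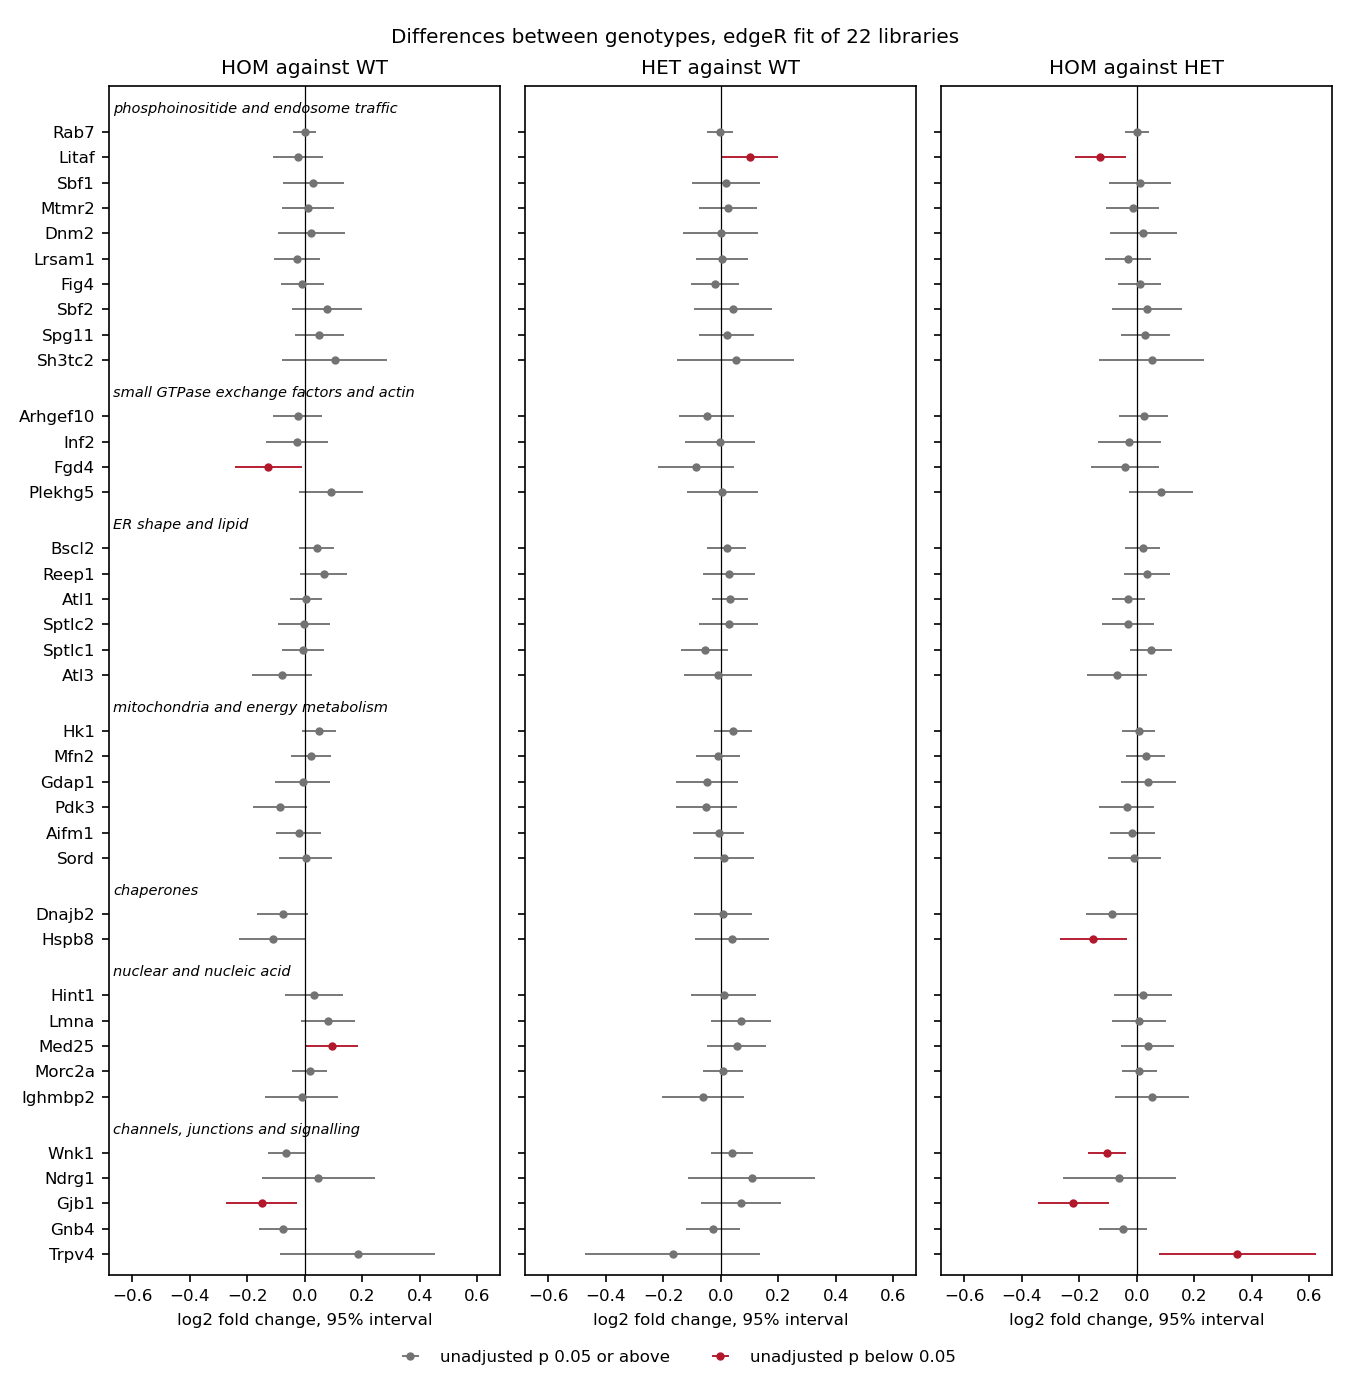
Log2 fold change (x axis) with its 95% interval for the 38 tested neuropathy genes (rows, by role) in HOM against WT, HET against WT and HOM against HET, from the edgeR fit of 22 libraries. Red points have an unadjusted p below 0.05 (3, 1 and 5 genes), and no gene passed after adjustment.

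Levels per transcript length covered a wide range. In WT cords the nucleotide hydrolase Hint1 was highest at 510 ± 32.0 TPM (SD, n = 6), followed by the kinase Wnk1 (286 ± 17.8), Ndrg1 (257 ± 19.6) and the late endosome GTPase Rab7 (256 ± 6.5). Ndrg1 and Rab7 differed by less than the SD of either. At the low end were the RNA and DNA helicase Ighmbp2 (7.86 ± 0.90 TPM), the Schwann cell endosome protein Sh3tc2 (3.81 ± 0.323), the cation channel Trpv4 (1.14 ± 0.176) and the small heat shock protein Hspb3 (0.172 ± 0.107). Spread within genotypes, computed on CPM without HOM 3, was lowest for Rab7, with a coefficient of variation of 1.32% where counting alone gives 1.03%, and next lowest for the atlastin Atl1 at 2.01%. It was highest among the tested members for Trpv4 (17.1%, where counting alone gives 12.7%), Fgd4 (8.59%) and Ighmbp2 (8.59%). The median over the 37 members with at least 10 CPM was 5.46%, against 5.67% over the 10323 genes at that level.

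**Figure D2:**
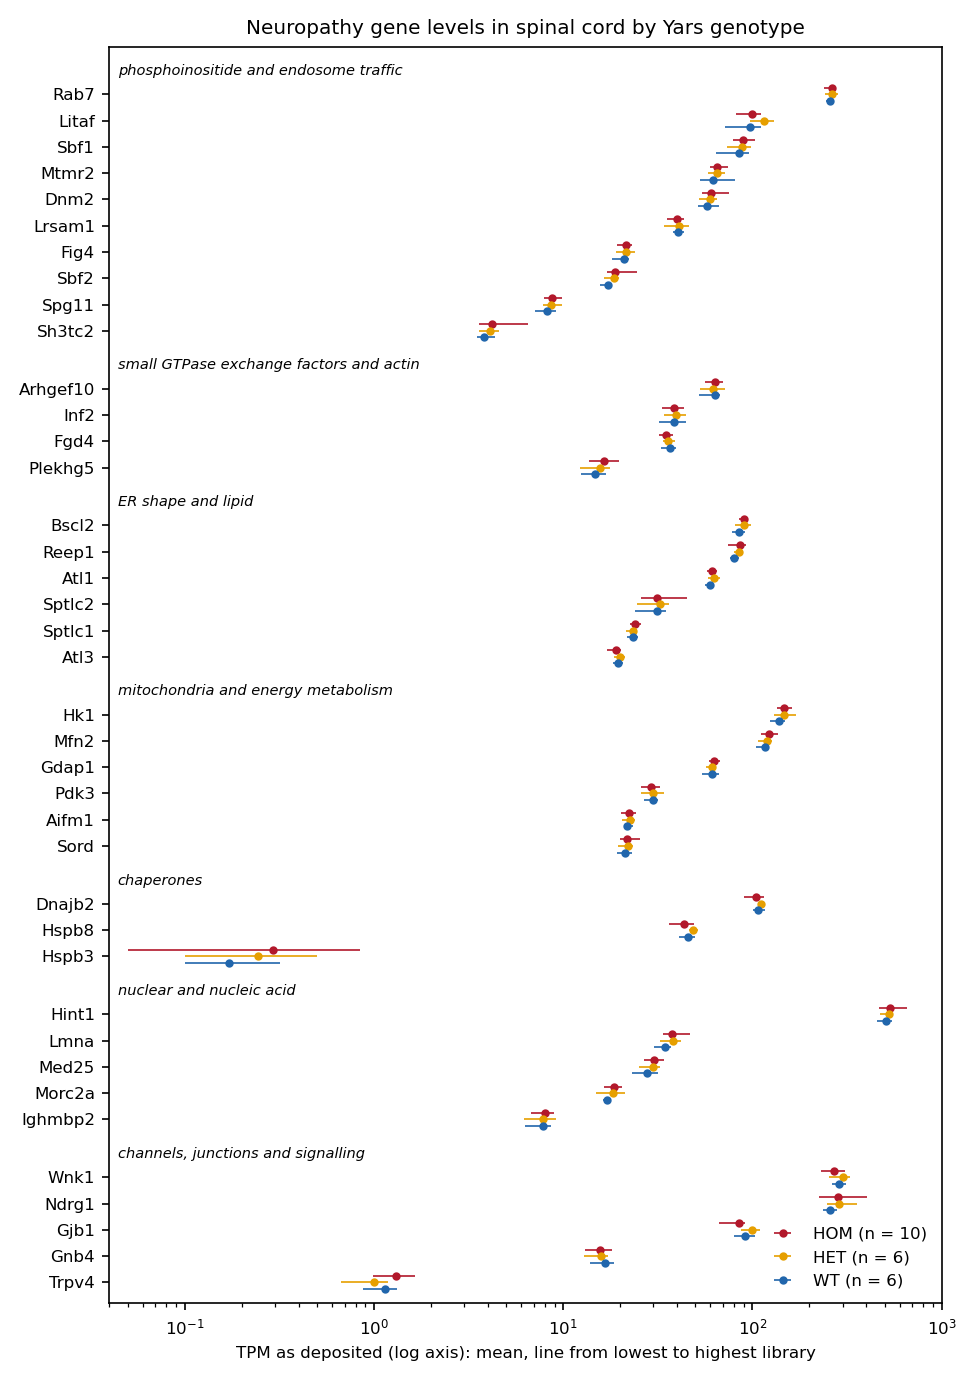
Deposited TPM (log axis) of the 39 neuropathy genes by role, as the mean of HOM (n = 10), HET (n = 6) and WT (n = 6) libraries with a line from the lowest to the highest library; the line of Hspb3 in HOM is drawn from 0.05 because its lowest value is 0. WT means run from 0.172 for Hspb3 to 510 for Hint1, and the genotypes lie farthest apart for the low genes Hspb3 and Trpv4.

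Gjb1 was the member with the smallest p in HOM against WT and in HOM against HET. It encodes connexin 32, the gap junction protein of Schwann cells and oligodendrocytes whose loss causes X-linked neuropathy. Its level in HOM libraries had a lowest, median and highest value of 49.0, 65.6 and 70.6 CPM. In HET libraries these were 71.4, 74.5 and 81.8 CPM, and in WT libraries 63.0, 73.0 and 77.7 CPM. All 10 HOM libraries were below all 6 HET libraries, while HOM and WT overlapped. Gjb1 was the only member whose CPM did not overlap between HOM and HET, which held for 0.23% of all tested genes, and 0 members separated HOM from WT (background 0.124%) or HET from WT (background 0.141%). The log2 difference in HOM against HET was -0.22 (SE 0.060, p = 0.0012, adjusted p = 0.209, edgeR's quasi-likelihood test), that is 0.859-fold, and -0.15 (SE 0.060, p = 0.020, adjusted p = 0.815) in HOM against WT. HET against WT gave 0.07 (SE 0.067, adjusted p = 1).

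HOM 3 held the lowest Gjb1 value. The other 9 HOM libraries held 62.8 to 70.6 CPM, with a mean of 66.7 ± 3.03 CPM (SD), against 64.9 ± 6.27 CPM over all 10, and leaving HOM 3 out gave -0.18 in HOM against HET (adjusted p = 0.0929) and -0.11 in HOM against WT (adjusted p = 0.695, same test). The titles of the libraries begin with 39992, 40411 or 40412, numbers the labels do not explain. HOM had 5, 3 and 2 libraries under them, HET 0, 1 and 5, and WT 1, 2 and 3. Within the numbers 40411 and 40412 the Gjb1 difference in HOM against HET was -0.08 and -0.25. In HOM against WT it was 0.01, -0.10 and -0.22 within 39992, 40411 and 40412, where 39992 holds a single WT library. With the title number as a covariate, the HOM against HET difference was -0.16 (p = 0.037, adjusted p = 1). Oligodendrocyte markers, which mark the cells of the cord that express Gjb1, summed to a median of 21919 CPM in the 9 HOM libraries other than HOM 3, 23344 CPM in HET and 23206 CPM in WT. With all libraries, 7 of 10 were lower in HOM than in HET with a median log2 difference of -0.07, and 6 of 10 with a median of -0.035 without HOM 3. Their part in the Gjb1 difference was not tested, and in bulk tissue fewer cells of a type and less RNA per cell cannot be told apart.

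The deposited tables also give the transcript length that RSEM assigned to each gene, weighted by the isoforms it found. For Gjb1 (ENSMUSG00000047797, chrX:101376378-101385629, plus strand, GRCm38 in GENCODE vM21) the files list 3 transcripts, of 1513, 1565 and 1585 bases in that annotation. The deposited length was 1585 in 21 of 22 libraries and 1584.96 in the other, the length of Gjb1-203. That transcript begins at position 101383736, 4 bases after the most downstream RefSeq start site of the gene, and Gjb1-202 begins at -7354 from that site. As background, this gene is known to use a promoter close to its coding exon in nerve and one farther upstream in liver. The windows at these starts are shown because the deposited length sets them apart in all 3 genotypes. Each runs from 250 bases before to 50 after the start (RefSeq, GRCm38.p6, plus strand), with capitals marking ACAAAG or its reverse complement, the core letters bound by SOX factors such as SOX10, a regulator of myelinating cells.
Gjb1 upstream start, chrX:101376126-101376425: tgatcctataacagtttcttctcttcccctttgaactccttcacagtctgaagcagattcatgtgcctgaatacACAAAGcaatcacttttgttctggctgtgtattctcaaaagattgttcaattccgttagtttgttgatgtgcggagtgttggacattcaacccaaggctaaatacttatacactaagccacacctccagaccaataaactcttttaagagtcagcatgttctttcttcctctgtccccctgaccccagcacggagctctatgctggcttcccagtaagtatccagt
Gjb1 downstream start, chrX:101383482-101383781: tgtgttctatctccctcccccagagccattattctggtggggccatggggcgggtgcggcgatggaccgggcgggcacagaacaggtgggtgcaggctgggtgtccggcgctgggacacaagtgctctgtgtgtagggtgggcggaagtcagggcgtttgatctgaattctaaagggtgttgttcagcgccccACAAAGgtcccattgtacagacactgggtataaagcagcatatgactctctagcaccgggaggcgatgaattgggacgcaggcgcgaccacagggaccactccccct
Both windows held 1 match, at -176 from the upstream start and at -57 from the downstream start. The same letters on either strand were in 18.7% of 32851 windows of this length and in 11 of the 52 windows found for 33 members, and a match is a description of the letters only. The windows differed in base composition, with 43.3% G and C upstream and 60.0% downstream. No window was matched for Arhgef10, Gdap1, Gnb4, Hint1, Ndrg1 and Sh3tc2.

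The other channel and signalling genes were Wnk1, Trpv4, Gnb4 and Ndrg1. Wnk1 encodes a kinase that controls chloride cotransporters and has a nervous system isoform mutated in sensory neuropathy. Its lowest, median and highest levels were 534, 549 and 597 CPM in HOM, 561, 598 and 652 CPM in HET and 569, 577 and 601 CPM in WT. HOM lay lower with overlap, and the log2 difference was -0.10 against HET (SE 0.031, p = 0.0031, adjusted p = 0.310) and -0.06 against WT (SE 0.031, p = 0.051, adjusted p = 0.815, edgeR's quasi-likelihood test). It kept its sign within each title number that holds both genotypes.

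Trpv4, a calcium-permeable channel whose gain-of-function changes cause motor neuropathy, had 1.19, 2.2 and 2.52 CPM as lowest, median and highest level in HOM, 1.23, 1.65 and 1.96 CPM in HET and 1.52, 1.90 and 2.05 CPM in WT. The groups overlapped, and the values rest on 32 to 88 counts per library. The log2 difference was 0.35 in HOM against HET (SE 0.13, p = 0.014, adjusted p = 0.430) and -0.17 in HET against WT (SE 0.15, p = 0.270, adjusted p = 1, edgeR's quasi-likelihood test). Within title numbers 40411 and 40412 the HOM against HET difference was 0.55 and -0.09, so its sign was not shared. Gnb4, a G protein beta subunit, had a median of 27.7 CPM in HOM, 28.6 CPM in HET and 30.2 CPM in WT, and HOM against WT gave -0.08 (SE 0.041, p = 0.079, adjusted p = 0.815). With the title number as a covariate it was -0.04 (p = 0.301), and it was 0.06, -0.09 and -0.05 within 39992, 40411 and 40412. Ndrg1, a protein abundant in myelinating cells, had a median of 322 CPM in HOM, 355 CPM in HET and 323 CPM in WT. Its HOM against HET difference was -0.06 with all libraries (p = 0.533) and -0.15 without HOM 3 (p = 0.0017, adjusted p = 0.206), since HOM 3 was its highest library at 526.2 CPM.

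**Figure D3:**
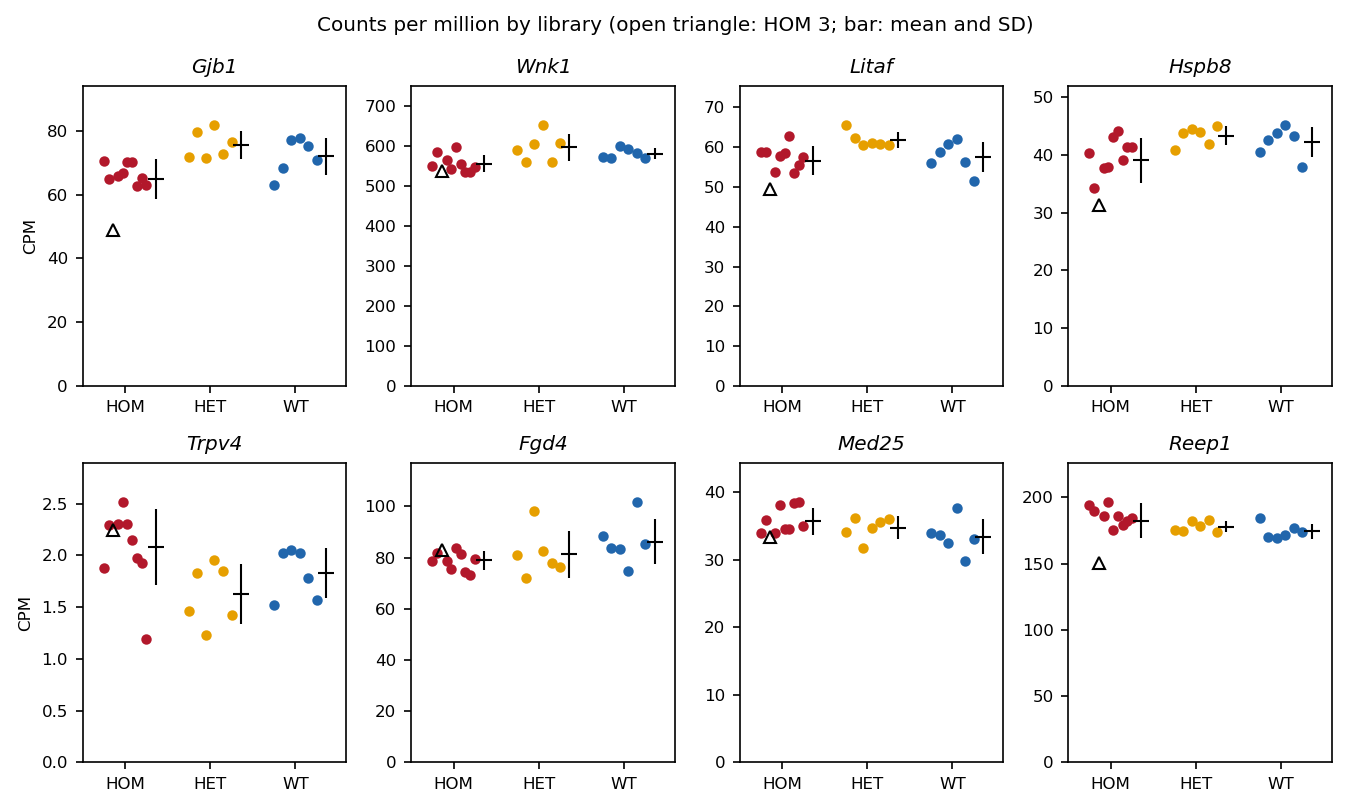
CPM (y axis, from 0) of 8 neuropathy genes in each HOM (n = 10), HET (n = 6) and WT (n = 6) library, with HOM 3 as an open triangle and the mean and SD of all libraries of a genotype as a black bar. Gjb1 is the gene in which all HOM points (49.0 to 70.6) lie below all HET points (71.4 to 81.8), and HOM 3 is the lowest HOM library for Gjb1, Litaf, Hspb8 and Reep1.

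Endosome traffic genes were close to level across genotypes. Signalling lipids on endosomes are made and removed in a fixed order as cargo moves to the lysosome, and Mtmr2, the phosphatase that removes phosphate from them, works bound to its inactive relatives Sbf1 and Sbf2. Mtmr2 had a median of 87.2 CPM in HOM, 87.8 CPM in HET and 84.2 CPM in WT, and the log2 differences in HOM against WT were 0.01 for Mtmr2, 0.03 for Sbf1 and 0.08 for Sbf2 (0.02 without HOM 3). Fig4, of the complex that turns over the lipid of late endosomes and lysosomes, gave -0.0087, and 0.0050 without HOM 3. Rab7, which directs late endosomes to lysosomes, was the most even member, with 286 ± 6.01 CPM in HOM, 286 ± 2.72 CPM in HET and 286 ± 3.85 CPM in WT (SD) and a 95% interval of -0.04 to 0.04. Dynamin 2 (Dnm2), which pinches vesicles from membranes, the ubiquitin ligase Lrsam1, Spg11, which acts in lysosome reformation, and Sh3tc2, which acts on recycling endosomes, gave 0.02, -0.03, 0.05 and 0.10. Without HOM 3 the Sh3tc2 value was 0.02, that of Sbf1 was 0.05 and that of Lrsam1 was -0.00047. The median of the 10 was 0.017.

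Litaf, an endosomal membrane protein that sorts cargo for degradation, was the exception in the other comparisons. Its lowest, median and highest levels were 49.5, 57.6 and 62.7 CPM in HOM, 60.4, 60.9 and 65.5 CPM in HET and 51.6, 57.5 and 62.0 CPM in WT. HET libraries sat at the top of both other ranges, with overlap. The log2 difference was -0.13 in HOM against HET (SE 0.043, p = 0.0066, adjusted p = 0.351), 0.10 in HET against WT (SE 0.048, p = 0.042, adjusted p = 1) and -0.02 in HOM against WT (edgeR's quasi-likelihood test). Both larger differences kept their sign within each title number that could be compared. Litaf (chr16:10959275-11066157, GRCm38) overlaps Snn on the other strand, and the strand setting of the counting is not given in the sources used here.

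Partners in the same pathway had no calls in HOM against WT, where 0.0943% of all tested genes were called. The same share applies to the lists of related genes below, and at that level an empty list does not set its genes apart. Among 21 phosphoinositide kinases and phosphatases, 13 were higher and 8 lower in HOM than in WT with a median log2 difference of 0.011, and 0 were called. The smallest p-values were those of Mtmr3 (0.08, p = 0.030) and Mtmr9 (0.07, p = 0.116), both myotubularin relatives. Of 23 late endosome and lysosome traffic genes, 16 were higher and 7 lower (median 0.013) and 0 were called, led by Chmp2b of the membrane-cutting ESCRT complex (-0.09, p = 0.066) and the lysosome adaptor Plekhm1 (0.06, p = 0.139).

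Small GTPase and actin genes included Fgd4, which encodes frabin, an activator of Cdc42 needed for peripheral myelin. Fgd4 had a lowest, median and highest level of 73.1, 79.1 and 83.9 CPM in HOM, 72.1, 79.3 and 98.3 CPM in HET and 74.7, 84.6 and 102 CPM in WT. The groups overlapped, and the highest WT and HET libraries exceeded all HOM libraries. The log2 difference was -0.13 in HOM against WT (SE 0.057, p = 0.037, adjusted p = 0.815) and -0.08 in HET against WT (SE 0.064, p = 0.198, adjusted p = 1, edgeR's quasi-likelihood test). It was -0.15, -0.07 and -0.20 within the 3 title numbers in HOM against WT. WT 5 held the highest Fgd4 level (102 CPM), and without it the difference was -0.07 in HOM against WT and -0.03 in HET against WT. In HET against WT it was -0.15 without HET 3, the highest HET library, and it ranged from -0.17 to -0.07 in HOM against WT over all libraries left out in turn. Plekhg5, a small GTPase activator of motor neurons, had a median of 29.6 CPM in HOM, 28.6 CPM in HET and 27.9 CPM in WT, with 0.09 in HOM against WT (p = 0.102) and 0.07 without HOM 3. The exchange factor Arhgef10 (63.1 TPM in WT, the highest of the group) and the actin formin Inf2 gave -0.02 and -0.03. The lowest of the group was Plekhg5 at 14.7 TPM in WT.

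ER genes divide into proteins that bend and fuse its tubules and enzymes or factors of lipid synthesis. Reep1, which bends ER tubules in long axons, had a lowest, median and highest level of 151, 185 and 197 CPM in HOM, 174, 177 and 183 CPM in HET and 169, 173 and 185 CPM in WT. Apart from HOM 3, the HOM libraries held 175 to 197 CPM and overlapped the upper part of the WT range. The log2 difference in HOM against WT was 0.07 with all libraries (SE 0.040, p = 0.109, adjusted p = 0.815) and 0.09 without HOM 3 (p = 0.0023, adjusted p = 0.432, edgeR's quasi-likelihood test). Within the title number 39992, where HOM 3 lies, it was -0.01. The tubule-fusing atlastins Atl1 and Atl3 gave 0.0041 and -0.08, and the lipid droplet protein seipin, Bscl2, the most abundant of the group at 84.8 TPM in WT, gave 0.04. Atl3 was the lowest at 19.4 TPM. Of 18 other ER-shaping genes, 7 were higher and 11 lower (median -0.017) and 0 were called, led by Reep2 (0.09, p = 0.018) and Rtn4 (-0.10, p = 0.027), relatives of the same membrane-bending families.

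Sptlc1 and Sptlc2 form serine palmitoyltransferase, the first enzyme of sphingolipid synthesis, whose mutant forms make toxic lipids in sensory neuropathy. Sptlc1 had a median of 33.0 CPM in HOM, 31.3 CPM in HET and 33.0 CPM in WT, with -0.06 in HET against WT (SE 0.040, p = 0.170, adjusted p = 1) and -0.01 in HOM against WT. Sptlc2 had a median of 52.7, 54.7 and 53.5 CPM in HOM, HET and WT and gave -0.0034 in HOM against WT (-0.04 without HOM 3). Without HOM 3, its HOM against HET difference was -0.07 (p = 0.034, adjusted p = 0.514). Among 18 tested sphingolipid genes, 11 were higher and 7 lower in HOM than in WT (median 0.0052), and 0 were called. The enzyme's small subunit Sptssa (-0.11, p = 0.062) and its inhibitor Ormdl2 (-0.17, p = 0.068) had the smallest p-values.

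Mitochondrial and energy genes showed small differences of both signs. Hk1, which starts glycolysis, had a lowest, median and highest level of 285, 296 and 317 CPM in HOM, 286, 294 and 315 CPM in HET and 279, 286 and 302 CPM in WT. Ranges overlapped throughout, and the log2 difference was 0.05 in HOM against WT (SE 0.028, p = 0.093, adjusted p = 0.815) and 0.04 in HET against WT (SE 0.032, p = 0.190, adjusted p = 1). Pdk3, a kinase that holds back pyruvate dehydrogenase, had a median of 30.5 CPM in HOM, 30.7 CPM in HET and 32.7 CPM in WT, with -0.09 in HOM against WT (SE 0.046, p = 0.072, adjusted p = 0.815, edgeR's quasi-likelihood test). Mfn2, which fuses the mitochondrial outer membrane and is the gene most often changed in human axonal neuropathy, had 240 ± 11.3 CPM in HOM, 235 ± 7.35 CPM in HET and 236 ± 11.0 CPM in WT (SD), and its log2 difference of 0.02 in HOM against WT had a 95% interval of -0.05 to 0.09. Gdap1, of the same membrane, the flavoprotein Aifm1 and the sorbitol dehydrogenase Sord gave -0.0071, -0.02 and 0.0030. Without HOM 3, Gdap1 gave 0.0070 and Sord -0.017. Hk1 was highest in the group (138 TPM in WT) and Sord lowest (21.1 TPM). Of 21 genes of mitochondrial fusion, fission and contact, 13 were higher and 8 lower (median 0.0063) and 0 were called, led by the transport adaptor Trak2 (-0.11, p = 0.013) and the fission factor Mff (0.05, p = 0.056). Gjb1, Aifm1 and Pdk3 lie on the X chromosome. No member was called with the level of Xist as a covariate or without it, so that count gives no information on sex.

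Of the 3 chaperones, Hspb8 and Dnajb2 could be tested. Hspb8, a small heat shock protein that sends misfolded proteins to autophagy and causes motor neuropathy when mutated, had a lowest, median and highest level of 31.2, 39.6 and 44.1 CPM in HOM, 40.8, 43.9 and 45.0 CPM in HET and 37.8, 42.9 and 45.1 CPM in WT. HOM 3 was the lowest library, and the groups overlapped. The log2 difference was -0.15 in HOM against HET (SE 0.056, p = 0.013, adjusted p = 0.416) and -0.11 in HOM against WT (SE 0.056, p = 0.057, adjusted p = 0.815, edgeR's quasi-likelihood test). Without HOM 3 these were -0.12 and -0.08. With the title number as a covariate and all libraries they were -0.07 and -0.06, and within 40411 the HOM against HET difference was 0.04. Dnajb2, a neuronal co-chaperone of Hsp70, had a median of 60.9 CPM in HOM, 63.3 CPM in HET and 63.6 CPM in WT. It gave -0.09 in HOM against HET (SE 0.044, p = 0.059, adjusted p = 0.586) and -0.08 in HOM against WT (SE 0.044, p = 0.090, adjusted p = 0.815), and -0.01 against HET with the title number as a covariate. HOM 3 was the lowest of all libraries for Dnajb2 at 50.9 CPM, and without it the differences were -0.06 against HET and -0.05 against WT. Hspb3, a small heat shock protein known from muscle and motor neurons, had 0 to 10 counts per library and 31, 14 and 11 counts over all HOM, HET and WT libraries, too few for the test. Of 15 further small heat shock and co-chaperone genes, 7 were higher and 8 lower in HOM than in WT (median -0.017) and 0 were called, led by Hspb6 (0.24, p = 0.094) and the ubiquitin ligase Stub1 (0.05, p = 0.153). In HOM against HET 3 were higher and 12 lower (median -0.099), with 2 at an unadjusted p below 0.05 (background 8.8%). HET against WT had 12 higher and 3 lower (median 0.080), with 3 at that level (background 3.41%). None was called in either (edgeR's quasi-likelihood test).

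The Hspb8 start window is shown because it is 1 of 3 member windows, with those of Fgd4 and Hspb3, that hold GAANNTTC, the paired letters of the heat shock element, in which capitals mark the match (RefSeq, GRCm38.p6, minus strand).
Hspb8, chr5:116422815-116423114: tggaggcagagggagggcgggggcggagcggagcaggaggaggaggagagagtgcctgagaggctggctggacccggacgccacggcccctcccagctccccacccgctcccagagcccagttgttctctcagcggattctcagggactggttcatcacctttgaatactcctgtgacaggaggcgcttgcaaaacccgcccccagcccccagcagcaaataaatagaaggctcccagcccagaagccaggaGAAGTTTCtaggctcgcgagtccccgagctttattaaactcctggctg
The letters read the same on both strands as a pattern and were in 7.9% of the 32851 windows and in 3 of the 52 member windows.

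The 5 nuclear genes all had a positive log2 difference in HOM against HET, with values from 0.01 to 0.05 and a median of 0.023, and 0 were called. Over all tested genes 8998 were higher and 7976 lower in that comparison. Without HOM 3 the value of Lmna was -0.02. Within title number 40412 Lmna, Hint1 and Morc2a gave -0.05, -0.015 and -4.6e-05, while Med25 and Ighmbp2 stayed positive. Within 40411 only Lmna was negative (-0.03). Med25, a subunit of the Mediator complex that links transcription factors to RNA polymerase, had a lowest, median and highest level of 33.4, 34.8 and 38.6 CPM in HOM, 31.7, 35.2 and 36.1 CPM in HET and 29.7, 33.3 and 37.7 CPM in WT. The ranges overlapped, and the log2 difference in HOM against WT was 0.09 (SE 0.044, p = 0.045, adjusted p = 0.815, edgeR's quasi-likelihood test), with 0.05, 0.12 and 0.14 within the 3 title numbers. Lmna, which encodes the lamins A and C of the nuclear envelope, had a median of 38.2 CPM in HOM, 38.8 CPM in HET and 37.4 CPM in WT. It gave 0.08 in HOM against WT (SE 0.046, p = 0.094, adjusted p = 0.815) and 0.07 in HET against WT (SE 0.051, p = 0.182, adjusted p = 1), and 0.05 in HOM against WT without HOM 3. Hint1 and the chromatin ATPase Morc2a gave 0.03 and 0.02, and Ighmbp2, whose loss kills motor neurons in mice, gave -0.0100 (0.0016 without HOM 3).

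In HOM 3 the neuropathy genes spread in both directions. It lay outside the range of the other 21 libraries for 16 of 38 members, 7 above and 9 below, where 29.4% of all tested genes did so. WT 5 came next, with 9 of 38 members and 22.5% of all genes, and the other 20 libraries had 0 to 6 members outside. Ndrg1 was highest relative to the other HOM libraries, with 526.2 CPM in HOM 3 against a median of 322 CPM in the other 9, a ratio of 1.63. Sh3tc2 followed with 15.5 against 9.85 CPM (1.58), and Sbf2 with 86.3 against 61.1 CPM (1.41). All other libraries fell short of HOM 3 for these 3 genes. Members known from Schwann cells were not all high there, with ratios of 0.744 for Gjb1, 0.857 for Litaf, 0.911 for Mtmr2 and 1.06 for Fgd4. Sptlc2 (65.7 against 52.6 CPM, 1.25) and Lmna (47.1 against 38.2 CPM, 1.23) were also above all other libraries.

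The lowest ratios in HOM 3 were those of Gjb1 (49.0 against 65.9 CPM, 0.744), Hspb8 (31.2 against 40.2 CPM, 0.777) and Reep1 (151 against 186 CPM, 0.810). Each of them lay below all other libraries. Partners did not move alike within this library. Mtmr2 and Sbf1, which bind each other as Mtmr2 and Sbf2 do, had ratios of 0.911 and 0.850 where Sbf2 had 1.41, and Sptlc1 had 1.03 where Sptlc2 had 1.25. None of the members exceeded the range of the other libraries by over 1.5 times. All 10 Schwann cell markers were above all other libraries there, and so were 11 of 12 fibroblast and 10 of 10 blood markers, while 8 of 10 oligodendrocyte, 6 of 7 microglia, 2 of 7 astrocyte, 4 of 8 neuron and 4 of 6 motor neuron markers were below all others. Their part in the HOM 3 values of the neuropathy genes was not tested. The HOM mean of Ndrg1 was 338 ± 69.3 CPM with HOM 3 and 317 ± 21.6 CPM without it (SD, n = 10 and 9), that of Sh3tc2 10.4 ± 1.87 and 9.81 ± 0.508 CPM, and that of Hspb8 39 ± 3.95 and 39.9 ± 3.03 CPM. Without HOM 3 the members called stayed at 0 in all 3 comparisons, and the number at an unadjusted p below 0.05 was 5 of 38 in HOM against WT (background 6.48%), 2 of 38 in HET against WT (background 4.28%) and 8 of 38 in HOM against HET (background 8.85%).

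**Figure D4:**
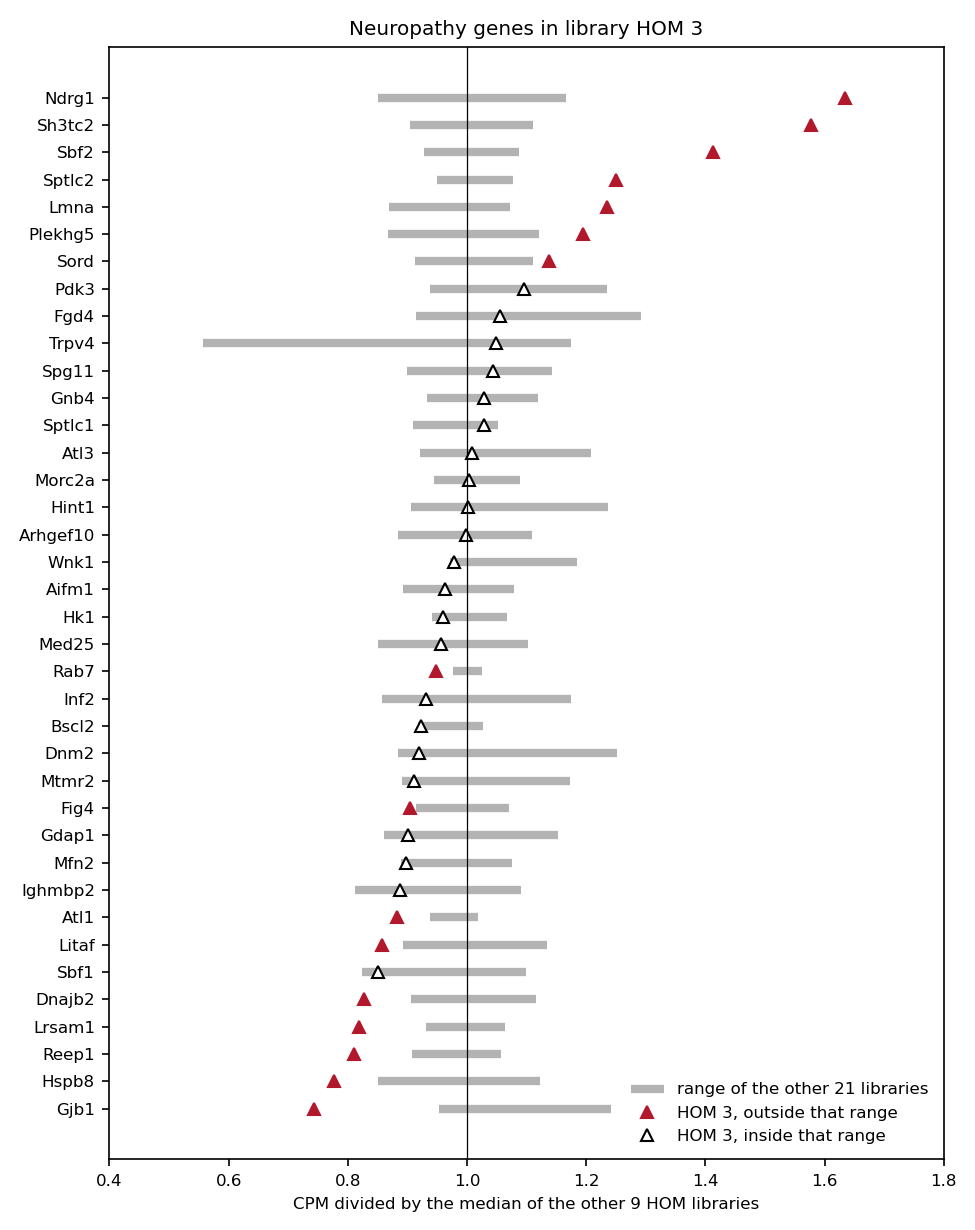
CPM in HOM 3 (triangles) of the 38 tested neuropathy genes, divided by the median of the other 9 HOM libraries (x axis), with the range of the other 21 libraries on the same scale as grey bars. Filled triangles, 7 above and 9 below, lie outside that range, from Ndrg1 at 1.63 to Gjb1 at 0.744.

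A second readout, the weighted transcript length, changes where the mix of long and short isoforms changes. It could be tested for 30 members, and 0 were called in HOM against WT (background 0% of 10856 genes), with 0 of 30 at an unadjusted p below 0.05 (background 4.55%, limma). In HET against WT and in HOM against HET the counts were also 0 of 30 called (background 0% in both) and 0 of 30 at an unadjusted p below 0.05 (background 3.84% and 4.44%). The 4 smallest p-values in HOM against WT were those of Bscl2 (1715 ± 16.6 bases in HOM and 1727 ± 12.2 bases in WT, p = 0.123), Morc2a (4005 ± 211 and 4143 ± 94.1 bases, p = 0.126), Pdk3 (2104 ± 15.5 and 2113 ± 3.76 bases, p = 0.141) and Fgd4 (4180 ± 48.9 and 4225 ± 62.9 bases, p = 0.143; SD, HOM first, all with an adjusted p of 1).

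Other neuropathy genes outside the 39, such as those of myelin, neurofilaments and motors, were tested as well. Of 39 tested genes, 25 were higher and 14 lower in HOM than in WT (median 0.011), and 0 were called. At an unadjusted p below 0.05 there were 7 of 39 (background 5.91%, edgeR's quasi-likelihood test), and log2 differences ran from -0.24 to 8.95. Without HOM 3 there were 3 of 38 (background 6.48%), from -0.21 to 0.08. HOM against HET had 7 of 39 (background 8.8%), and 8 of 38 without HOM 3 (background 8.85%). Markers of the cord's own cells had medians from -0.015 to -0.082 in HOM against WT, with 0 called, and 10 of 10 oligodendrocyte, 7 of 7 astrocyte, 7 of 7 microglia, 5 of 8 neuron and 4 of 6 motor neuron markers were lower. They were led by Mbp and Ermn for oligodendrocytes (-0.11 and -0.20), Aqp4 and Gfap for astrocytes (-0.12 and -0.20), P2ry12 and Cx3cr1 for microglia (-0.10 and -0.04), Slc32a1 and Map2 for neurons (0.06 and -0.06) and Chat and Slc5a7 for motor neurons (-0.22 and -0.24). Of the tested markers of cells from outside the cord, 8 of 8 Schwann cell, 11 of 12 fibroblast and 9 of 9 blood markers were higher in HOM than in WT, with medians of 2.57, 0.47 and 0.97. Without HOM 3 these counts were 2 of 7, 6 of 12 and 7 of 7, with medians of -0.06, 0.0053 and 0.44, and the other neuropathy genes had 18 higher and 20 lower of 38 with a median of -0.026. The counts lower were then 9 of 10 for oligodendrocyte, 6 of 7 for astrocyte, 4 of 7 for microglia, 4 of 8 for neuron and 3 of 6 for motor neuron markers, with medians of -0.037, -0.025, -0.0016, 0.0067 and -0.047 in that order. Prx, Col1a1, Dcn, Ngp and S100a8, among those with the smallest p in each list, were not called (adjusted p from 0.643 to 0.815).

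Across title numbers, 16 of 38 members kept the same sign in HOM against WT within all 3, 20 of 38 in HET against WT within both that hold the 2 genotypes, and 22 of 38 in HOM against HET within both. The share over all genes was not computed, so these counts are a description only. A single WT library under 39992 and a single HET library under 40411 set many of these signs. With the title number as a covariate, 3 of 38 members had an unadjusted p below 0.05 in HOM against HET (background 4.11%), and 0 were called.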

How the data were processed

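The authors deposited, per library and Ensembl gene, RSEM expected counts, TPM and the mean transcript length weighted by isoform abundance, per the file headers. Reads had gone through RSEM 1.2.12 and Bowtie2 2.2.0, both listed in the submitters' processing notes, after stranded polyA library preparation with KAPA kits (labels' protocols). Neither the genome build and annotation nor how strand was set in counting is stated in these sources. RSEM shares reads among similar genes by a model, and 18 of the 39 members have a gene annotated on the opposite strand, so their levels are uncertain to that extent.

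Expected counts were rounded, filtered with filterByExpr (16974 genes left), scaled by TMM and fitted over all 22 libraries with edgeR 4.0.16 (quasi-likelihood test, R 4.3.3), with Benjamini-Hochberg adjustment over all tested genes and a threshold of 0.05. Log2 lengths of 10856 genes were tested with limma 3.58.1. DESeq2 1.42.0, limma voom, limma on log2(TPM + 1) and log2(TPM + 0.1), RLE scaling, no filter, fits of 2 genotypes, the title number, the level of Xist and each library left out were alternatives. The count script was tested on simulated data of 16861 genes for HOM against WT, with 50 genes changed at each fold and 6 false calls. No 2 libraries of a genotype agreed within sampling noise (lowest chi-square per gene 4.41 over 75 pairs). The highest values were in WT, at 115.6 for WT 4 with WT 5 and 112.7 for WT 2 with WT 4. The highest for a pair with HOM 3 was 92.1, with HOM 6. Replicate numbers follow accession order. Symbols and positions came from GENCODE vM21 on GRCm38 by Ensembl ID (37607 of 38924 matched), and 4 of 231 listed genes had no match. The members and lists were chosen with earlier results of these data known. All 39 members are named. Tests are given for the 12, 6 and 6 members with the smallest p in HOM against WT, HET against WT and HOM against HET, for the 8 largest HOM 3 ratios, 4 lengths and 2 genes per list. Results on a few listed genes are not reported here.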

Additional observations from a re-analysis of the deposited data

Results flagged for a closer look

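The members' CPM were checked for a library far from the others of its genotype in 114 groups of libraries, and 14 groups had one. Chance alone gives about 1 in 20 groups. The groups share the same libraries, so 1 unusual library can flag many genes, and the count is a description only. Of the 14, 9 were HOM 3. HOM 3 was highest for Sh3tc2 (15.5 CPM, next 10.5), Sbf2 (86.3 CPM, next 63.6), Sptlc2 (65.7 CPM, next 54.7), Lmna (47.1 CPM, next 39.2) and Ndrg1 (526.2 CPM, next 345). It was lowest for Lrsam1 (50.6 CPM, next 59.0), Atl1 (81.6 CPM, next 88.4), Reep1 (151 CPM, next 175) and Gjb1 (49.0 CPM, next 62.8). The remaining 5 were in 5 other libraries. Dnm2 was highest in HOM 8 (107 CPM, next 89.5), and Trpv4 was lowest in HOM 10 (1.19 CPM, next 1.88). Pdk3 was highest in HET 4 (37.5 CPM, next 31.6). Mtmr2 was highest in WT 6 (103 CPM, next 86.0), and Sptlc1 was lowest in WT 4 (29.8 CPM, next 32.7).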

How the results depend on the processing

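The count of members called was 0 under each of the 31 alternatives in HOM against WT, HET against WT and HOM against HET, under 26 with the allele number and under 2 on transcript length. The 24 log2 differences with tests kept their direction under each of 25 alternatives (600 values), and none passed. The median log2 difference of the members ranged from -0.0059 to 0.01 in HOM against WT, 0.0050 to 0.0225 in HET against WT and -0.0081 to 0.0150 in HOM against HET. The members at an unadjusted p below 0.05 ranged from 1 to 5 in HOM against WT (reported 3), with 5 without HOM 3, 6, 7 or 10, with voom or with Xist as a covariate, and 1 without HOM 8 or WT 3. In HET against WT (reported 1) there were 0 without HET 1 or 2, HOM 4, 5 or 6, or WT 1 or 5, or with Xist as a covariate. There were 2 without HET 3 or 4, HOM 3 or WT 4, or with only those genotypes fitted. Over all genes the share in HOM against WT was 5.91% as reported and 6.48% without HOM 3. In HET against WT it was 3.41% and 4.28%. The share is not given for the other settings, so these member counts are a description only. In HOM against HET (reported 5) there were 8 without HOM 3 (8.85% of all genes) and 3 with the title number as a covariate (4.11% of all genes). Over all genes, 11 to 28 were called in HOM against WT (reported 16, 28 by DESeq2), 0 in HET against WT, and 10 to 76 in HOM against HET (reported 18, 76 by DESeq2, 11 by limma on log2(TPM + 1), 10 with the title number, 10 without HET 3, 11 without HOM 1 or HOM 4, 39 without HOM 10). The cause was not tested. No paired analysis was possible because the replicate numbers only follow accession order. Depth limits Trpv4 (32 to 88 counts per library) and Hspb3 (0 to 10).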
